A study of Mus musculus with 4 samples.

Results

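Nanog, Dppa3, Gdf3, Apobec1 and Slc2a3 are neighbouring genes on mouse chromosome 6. The rule that defines them uses names and positions and no expression value. They are 5 of the 24116 genes of the count table, and all 5 were among the 14896 genes that passed the filter on low counts. On GRCm38 the cluster ran from 122577792 to 122802363, a span of 225 kb that holds 10 annotated genes in RefSeq, of which the count table lists the 5 described here.

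Poly(A) RNA of mouse embryonic stem cells (ESCs) was sequenced from wild-type (WT) ESCs and from G3 Terc-/- ESCs, which lack Terc, the RNA template of telomerase, and descend from mice kept without it over successive generations. Both lines were of the C57BL/6 strain and were grown on feeder cells in medium with 20% FBS and leukemia inhibitory factor (LIF). Each genotype was 1 line, named N12 for WT (the labels write G3 before this line too) and F35 for G3 Terc-/-, with 2 libraries each, so that genotype and line cannot be told apart and the p-values measure the spread between libraries of 1 line. In bulk RNA, a change in the share of cells that express a gene and a change in RNA per cell cannot be told apart either.

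The libraries held between 18047995 and 22520017 counts. Terc, the targeted gene, was counted 7 and 2 times in WT ESCs and 0 times in either library of G3 Terc-/- ESCs, where 0 allows up to 3 counts; it was too low to be tested. All 8 ESC markers passed the filter (6 higher, 2 lower), and their summed level was 5114 and 5183 CPM (counts per 1000000 counts of a library) in WT ESCs and 5922 and 6172 CPM in G3 Terc-/- ESCs. The feeder fibroblast list (14 of 15 genes tested, 7 higher, 1 lower) summed to 435 and 289 CPM in WT ESCs and to 483 and 333 CPM in G3 Terc-/- ESCs, so replicate 1 held more of these transcripts than replicate 2 in each genotype. The part of these cells in the members' differences was not tested.

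Nanog encodes a homeodomain transcription factor that holds ESCs in the self-renewing state together with Oct4 (Pou5f1) and Sox2. Its neighbours on both sides are also active in the early embryo and in ESCs: Dppa3 (also called Stella) encodes a maternal factor that protects the egg and zygote genome from changes in DNA methylation, Gdf3 encodes a TGF-beta family ligand that works with Nodal and its co-receptor Cripto (Tdgf1), and Slc2a3 encodes the glucose transporter GLUT3. Apobec1 encodes a cytidine deaminase known for editing the mRNA of apolipoprotein B in the intestine.

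The upstream sequence of Nanog is given because its proximal promoter is a textbook site where Oct4 and Sox2 bind side by side, and both factors were measured in these libraries. RefSeq (GRCm38.p6) places the 250 bases before the annotated start at chr6:122707239-122707488 on the plus strand, and capitals mark an octamer-like motif and the Sox motif that follows it.
Nanog promoter: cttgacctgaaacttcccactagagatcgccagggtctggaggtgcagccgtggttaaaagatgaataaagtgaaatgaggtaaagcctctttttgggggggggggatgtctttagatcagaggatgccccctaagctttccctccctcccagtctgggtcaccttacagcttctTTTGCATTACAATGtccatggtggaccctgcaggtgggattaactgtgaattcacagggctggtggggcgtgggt
The octamer letters TTTGCAT began 75 bases before the start (-75) and the Sox letters ACAATG began at -67, with 1 base between them. Over 32851 promoter windows of 250 bases searched on both strands, TTTGCAT was in 4.12% and ACAATG in 10.7%. The pair with that spacing was in 2 windows (0.00609%), both of which were overlapping windows of Nanog itself; the spaced pattern was written with the Nanog sequence in view, so this count describes how rare the letters are and tests nothing. The 250-base window available for Apobec1 (122602445 to 122602694, minus strand) held neither motif. It lay inside the annotated span of that gene, which reaches to 122603024, so the bases before that outer start were not searched. No promoter sequence was used for Dppa3, Gdf3 or Slc2a3.

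Along the chromosome, Apobec1 (gene ID 11810, 122577792 to 122603024, minus strand) was followed after 2378 bp by Gdf3 (14562, 122605403 to 122610087, minus strand) and after a further 16336 bp by Dppa3 (73708, 122626424 to 122630271, plus strand). Nanog (71950, 122707489 to 122714633, plus strand) lay 77217 bp beyond Dppa3, and Slc2a3 (20527, 122727809 to 122802363, minus strand) lay 13175 bp beyond Nanog.

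Levels were compared between genes as CPM per kilobase of exon, with CPM taken over the total counts of a library. In WT ESCs the order was Nanog at 180.1 ± 1.57, Slc2a3 at 164 ± 0.679, Dppa3 at 63.5 ± 1.17, Gdf3 at 36.7 ± 0.775 and Apobec1 at 2.94 ± 0.462 CPM per kilobase (SD, n = 2). In G3 Terc-/- ESCs it was Nanog at 404 ± 3.16, Slc2a3 at 286 ± 0.807, Gdf3 at 67.8 ± 5.61, Dppa3 at 28.0 ± 2.31 and Apobec1 at 3.03 ± 0.504 CPM per kilobase (SD, n = 2). In both genotypes each gene of this order was separated from the next by more than the spread of the libraries, and Dppa3 and Gdf3 exchanged places. Among 14098 tested genes with an exon length, Nanog moved from rank 202 in WT ESCs to rank 86 in G3 Terc-/- ESCs, Slc2a3 from 231 to 126, Gdf3 from 1382 to 673 and Dppa3 from 726 to 1896.

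**Figure D1:**
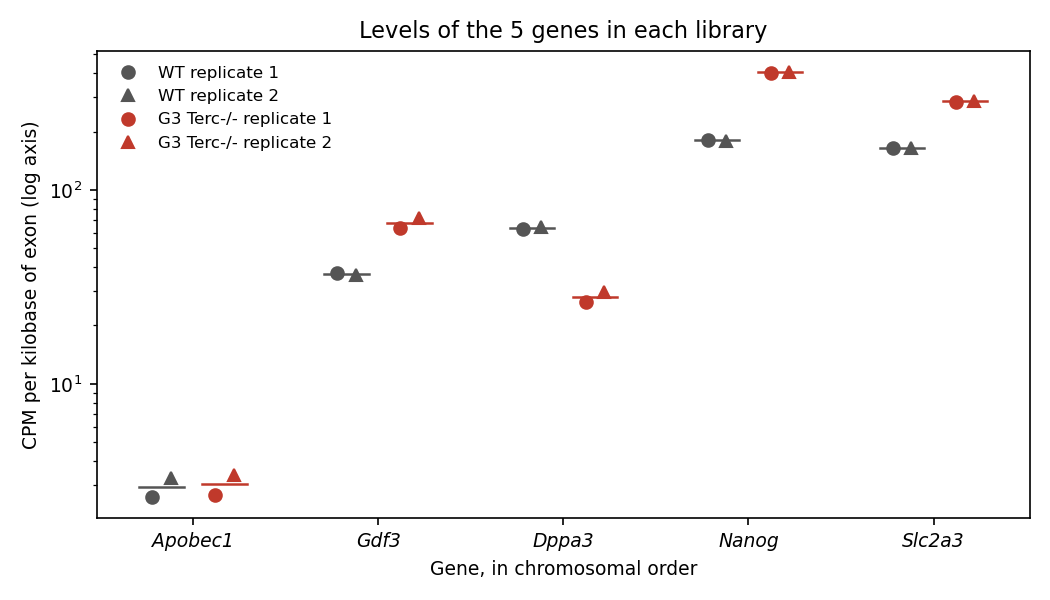
Level of each of the 5 genes in each library, in CPM per kilobase of exon on a log axis, for WT ESCs (grey) and G3 Terc-/- ESCs (red); bars mark the group mean and genes stand in chromosomal order. Nanog, Slc2a3 and Gdf3 are higher in both G3 Terc-/- libraries, Dppa3 is lower in both, and the Apobec1 groups overlap.

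Compared with WT ESCs, 3 of the 5 genes were higher in G3 Terc-/- ESCs (Nanog, Gdf3 and Slc2a3), 1 was lower (Dppa3) and 1 did not pass the test (Apobec1). The test was edgeR's quasi-likelihood test at a Benjamini-Hochberg adjusted p under 0.05, which called 21.7% of all tested genes higher and 21.8% lower. At the study's cutoffs of a fold change over 2 and P under 0.05, Nanog was higher and Dppa3 was lower, against 4.73% and 3.13% of all tested genes. The CPM of WT and G3 Terc-/- libraries did not overlap for 4 of the 5 genes, as for 70.4% of all tested genes. The median log2 fold change over all tested genes was 0.0062, so the values below stand against a centre near 0.

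Nanog, the transcription factor of the cluster, received 8963 and 9039 counts in WT ESCs and 19711 and 16426 counts in G3 Terc-/- ESCs. Scaled for depth with edgeR's TMM factors, as for the CPM of every single gene here, this was 410.5 and 408 CPM in WT ESCs and 889 and 900.3 CPM in G3 Terc-/- ESCs. Both G3 Terc-/- libraries stood far above both WT libraries, and the libraries of each genotype lay close together. The mean level rose from 409 ± 1.96 to 895 ± 8.09 CPM (SD, n = 2), 2.19-fold (95% confidence interval 2.05 to 2.34) or 1.13 on the log2 scale (SE 0.05, adjusted p = 4.74e-23, edgeR). By log2 fold change Nanog was the gene at rank 567 from the top of all 14896 tested genes.

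Nanog was also measured against its partners. Its level per kilobase relative to that of Pou5f1 was 0.441 and 0.438 in WT libraries and 0.737 and 0.738 in G3 Terc-/- libraries. Relative to Sox2 it was 0.795 and 0.748 in WT libraries and 1.32 and 1.18 in G3 Terc-/- libraries. Both ratios were higher in each G3 Terc-/- library than in each WT library, but an exact two-sided permutation test of 2 against 2 libraries cannot go below p = 0.333, the value of both. Pou5f1 rose by 0.38 and Sox2 by 0.44 on the log2 scale (SE 0.05 each, adjusted p = 4.07e-09 and 2.68e-09, edgeR), with intervals (0.29 to 0.47 and 0.33 to 0.54) that lay below that of Nanog (1.03 to 1.22). Both partner genes lie on other chromosomes, outside the stretch of chromosome 6 that is compared with Nanog below.

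Gdf3, the secreted ligand, had 1993 and 1975 counts in WT libraries and 3389 and 3140 in G3 Terc-/- libraries. At 91.3 and 89.1 CPM in WT ESCs and 153 and 172 CPM in G3 Terc-/- ESCs, the genotypes were apart although the G3 Terc-/- libraries differed more from each other than the WT libraries did. The mean rose from 90.2 ± 1.55 to 162 ± 13.6 CPM (SD, n = 2), which was 1.80-fold (95% confidence interval 1.66 to 1.95) or 0.85 on the log2 scale (SE 0.06, adjusted p = 6.27e-16, edgeR). The whole interval lay under the study's fold cutoff of 2. Its partner Tdgf1 rose by 0.66 (SE 0.05) and Nodal also by 0.66 (SE 0.06). The ratio of Gdf3 to Tdgf1 per kilobase was 0.0892 and 0.0854 in WT libraries and 0.0958 and 0.103 in G3 Terc-/- libraries, so Gdf3 was far less abundant than the co-receptor transcript in both genotypes.

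Slc2a3, the glucose transporter gene, had the most reads of the cluster, with 26153 and 26858 counts in WT libraries and 45275 and 37464 in G3 Terc-/- libraries. Its CPM was 1198 and 1211 in WT ESCs and 2042 and 2053 in G3 Terc-/- ESCs. The spread within each genotype was small beside the gap between them. The mean rose from 1204.5 ± 9.68 to 2048 ± 8.28 CPM (SD, n = 2), 1.70-fold (95% confidence interval 1.59 to 1.81) or 0.77 on the log2 scale (SE 0.05, adjusted p = 7.99e-18, edgeR), again under the fold cutoff of 2. Slc2a1, which encodes the widely expressed transporter GLUT1, fell by 0.20 on the log2 scale (SE 0.05), and the ratio of Slc2a3 to Slc2a1 per kilobase was 1.33 and 1.39 in WT libraries and 2.60 and 2.70 in G3 Terc-/- libraries (exact two-sided permutation p = 0.333, the smallest possible).

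Dppa3, the maternal factor, changed in the other direction. It had 1234 and 1293 counts in WT libraries and 515 and 477 in G3 Terc-/- libraries, or 56.5 and 58.3 CPM in WT ESCs and 23.2 and 26.1 CPM in G3 Terc-/- ESCs. Both G3 Terc-/- libraries were below both WT libraries. The mean was 57.4 ± 1.28 CPM in WT ESCs and 24.7 ± 2.06 CPM in G3 Terc-/- ESCs (SD, n = 2), 2.33-fold lower (95% confidence interval 2.10 to 2.60), a log2 fold change of -1.22 (SE 0.08, adjusted p = 2.94e-17, edgeR). It ranked 288 from the bottom of the 14896 tested genes. With opposite directions of change, Nanog per Dppa3 was 2.89 and 2.78 per kilobase in WT libraries and 15.2 and 13.7 in G3 Terc-/- libraries, and Gdf3 per Dppa3 was 0.595 and 0.562 in WT libraries and 2.42 in each G3 Terc-/- library.

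Apobec1, the deaminase, was the weakly expressed member. It had 156 and 199 counts in WT libraries and 158 and 165 in G3 Terc-/- libraries, which gave 7.14 and 8.98 CPM in WT ESCs and 7.13 and 9.04 CPM in G3 Terc-/- ESCs. In each genotype the libraries differed from each other by more than the genotypes did. The log2 fold change was -0.0061 (SE 0.15, adjusted p = 0.979, edgeR) with a 95% confidence interval of -0.31 to 0.30, a fold change between 0.807 and 1.23, so changes as large as those of Gdf3 and Slc2a3 lay outside the interval.

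The members that rose were also compared with each other. The ratio of Nanog to Slc2a3 per kilobase was 1.11 and 1.09 in WT libraries and 1.41 and 1.42 in G3 Terc-/- libraries, and that of Nanog to Gdf3 was 4.86 and 4.95 against 6.29 and 5.65, each with an exact two-sided permutation p of 0.333, the smallest possible. The ratio of Gdf3 to Slc2a3 overlapped between genotypes, at 0.228 and 0.220 in WT libraries and 0.224 and 0.251 in G3 Terc-/- libraries (exact two-sided permutation p = 0.667).

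The surrounding stretch of chromosome 6 was examined in the same fit, with the 10 nearest tested genes on each side, from Pex26 at 121183217 to Phb2 ending at 124716945. Of these 20 neighbours 17 were higher in G3 Terc-/- ESCs, 0 were lower, and 7 were higher at the study's cutoffs; Pex5 and Clstn3 were among the 3 that did not pass. All 20 log2 fold changes were above 0, with a median of 0.68, against 0.0062 for all tested genes. The median was 0.75 for the 10 genes on the centromere side, of which 9 were higher, and 0.59 for the 10 on the telomere side, of which 8 were higher.

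On the telomere side the nearest tested gene was Foxj2, a forkhead factor gene, which rose by 0.39 (SE 0.14, adjusted p = 0.0215, edgeR). The 4 neighbours with the largest changes were expressed at low levels in WT ESCs. A2m, the gene of the protease inhibitor alpha-2-macroglobulin, had 93 and 79 counts in WT libraries and 803 and 673 in G3 Terc-/- libraries, a log2 fold change of 3.22 (SE 0.11). Its relative Mug1 had 0 counts in both WT libraries and 43 and 48 in G3 Terc-/- libraries, at least 16.8-fold higher against a floor of 3 counts per library. C1s2, of the complement serine proteases, rose by 2.12 (SE 0.41) and Iqsec3, of a guanine exchange factor family, by 1.80 (SE 0.50), both from 10 or fewer WT counts per library.

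Set beside these neighbours, Nanog was not the most changed gene. In all, 7 of the 20 neighbours had a larger log2 fold change, but these had mean counts of only 11.5 to 412 per library, against 13535 for Nanog. The 9 neighbours averaging 500 or more counts per library ranged from 0.04 to 0.81 with a median of 0.55, and Nanog at 1.13 and Gdf3 at 0.85 lay above that range whereas Slc2a3 at 0.77 lay inside it. M6pr, Phc1 and Lpcat3, well expressed neighbours, rose by 0.81, 0.55 and 0.79. Dppa3 and Apobec1 had a smaller log2 fold change than every one of the 20 neighbours.

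**Figure D2:**
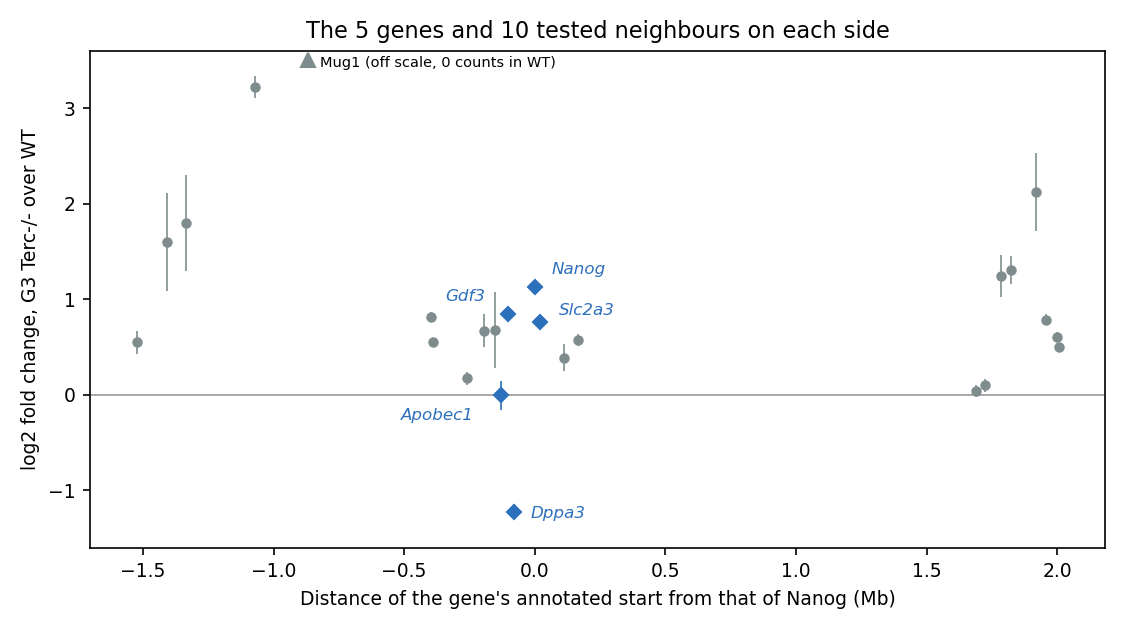
log2 fold change (G3 Terc-/- over WT) of the 5 genes (blue) and 20 neighbouring tested genes (grey) against the distance of each annotated start from that of Nanog in Mb; error bars are 1 SE from edgeR, and Mug1, with 0 counts in WT ESCs, is drawn at the upper edge. All neighbours lie above 0, Dppa3 at -1.22 lies below every other point and Apobec1 lies near 0.

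To place each member on the level of its surroundings, the log2 CPM of each gene was centred on its mean over the 4 libraries and the median of the 20 neighbours, centred likewise, was subtracted in each library. On this scale Nanog was at -0.22 and -0.21 in WT libraries and at 0.19 and 0.21 in G3 Terc-/- libraries, a difference of 0.41. Slc2a3 was at -0.05 and -0.01 in WT libraries and at 0.01 and 0.03 in G3 Terc-/- libraries, a difference of 0.05, and Gdf3 differed by 0.13. How far a member stood from its neighbours depended on the neighbours taken: the log2 fold change minus the neighbours' median was 0.09 for Slc2a3, 0.17 for Gdf3 and 0.45 for Nanog with all 20, against 0.20, 0.29 and 0.57 with 5 on each side and 0.21, 0.30 and 0.58 with the 9 well counted ones, a set chosen after the values were seen. Leaving out each library in turn with all 20 gave 0.04 (without G3 Terc-/- replicate 1) to 0.10 for Slc2a3, 0.10 (without G3 Terc-/- replicate 2) to 0.20 for Gdf3 and 0.41 to 0.46 for Nanog. For Apobec1 it gave -0.85 (without WT replicate 1) to -0.54 (without WT replicate 2). Dppa3 was at 0.93 and 0.99 in WT libraries and at -1.06 and -0.88 in G3 Terc-/- libraries, a difference of -1.93. Apobec1 was at 0.18 and 0.52 in WT libraries and at -0.53 and -0.19 in G3 Terc-/- libraries, a difference of -0.71, so that its level, with a log2 fold change near 0 by itself, was lower relative to the median of the genes around it. The exact two-sided permutation p was 0.333 for each of these 5 differences, the smallest that 2 against 2 libraries can give.

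**Figure D3:**
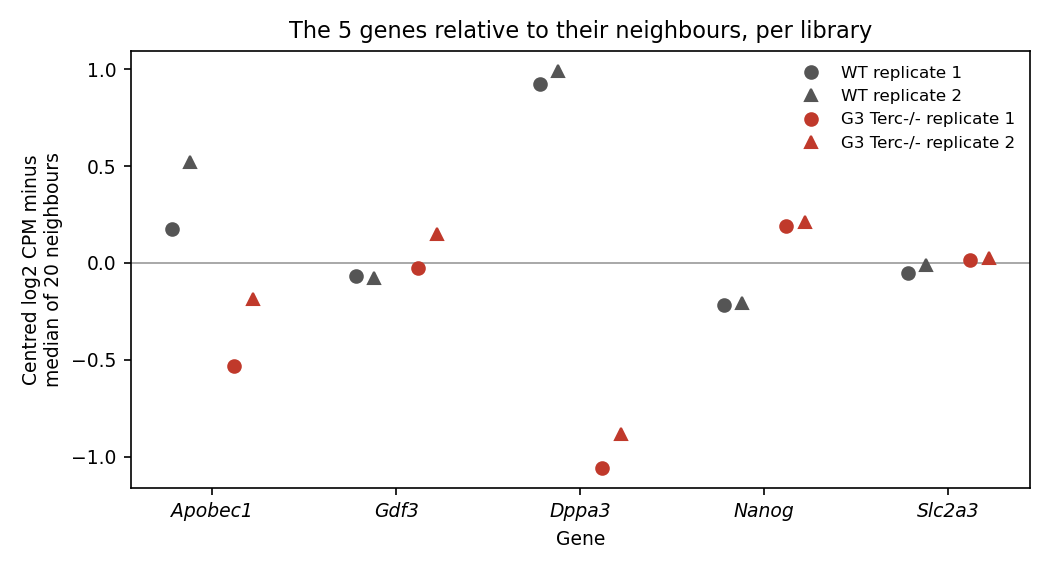
Level of the 5 genes relative to their neighbours in each library: log2 CPM centred on the gene's mean over the 4 libraries, minus the median of the same value over 20 neighbours, for WT ESCs (grey) and G3 Terc-/- ESCs (red). The G3 Terc-/- mean minus the WT mean is -1.93 for Dppa3, -0.71 for Apobec1, 0.41 for Nanog, 0.13 for Gdf3 and 0.05 for Slc2a3.

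Over the wider window from 120 to 130 Mb of chromosome 6, 101 genes were tested including the 5, with 71 higher, 2 lower and a median of 0.54. One of the 2 lower genes was Dppa3 and the other was Tspan9, a tetraspanin gene with a log2 fold change of -0.38 (adjusted p = 8.16e-05, edgeR), picked out after its value was seen. Of the other 590 tested genes of chromosome 6, 164 were higher and 213 lower, with a median of -0.03. The 14205 tested genes of other chromosomes had a median of 0.0052. The part of this regional difference in the values of the 5 genes was not tested beyond the subtraction given above. The study reports a deletion in the chromosome that carries the cluster, in Terc-/- ESCs of this generation. DNA copy number was not measured in these libraries, and its part in the values of the 5 genes was not tested.

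Genes that work with each member were then counted. In the pluripotency network of Nanog, 18 of 28 tested genes were higher in G3 Terc-/- ESCs and 8 were lower, with a median log2 fold change of 0.37. Tbx3, a T-box factor of the naive ESC state, rose by 1.81, and Nr5a2 and Tfcp2l1, which encode further factors of that network, rose by 1.10 and 0.80. Dppa5a, an abundant ESC transcript of an RNA-binding protein, fell by 0.79. At the study's cutoffs 4 genes of the network were higher and 0 were lower. At the adjusted p the network held genes in both directions, as the cluster itself did.

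In the Nodal, GDF and BMP pathway of Gdf3, 12 of 26 tested genes were higher and 4 were lower, with a median of 0.13. Id3, a BMP target gene, rose by 1.19 and Smad7, which encodes an inhibitory SMAD, rose by 0.87. Id1, of the same gene family as Id3, did not pass the test (0.10). Skil, whose product represses SMAD-dependent transcription, fell by 1.12 on the log2 scale. Other ligand genes of the list went both ways, with Nodal higher (0.66) and Gdf1 (-0.86) and Bmp4 (-0.26) lower. Inhba, at 0.16, did not pass the test.

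Among 15 genes of maternal factors and DNA methylation, the group of Dppa3, 5 were higher and 7 were lower, with a median of -0.07. Dnmt3b and Dnmt3a, the de novo methyltransferase genes, fell by 1.13 and 0.50 on the log2 scale. Zfp57 and Trim28, whose products maintain methylation at imprinted genes, rose by 0.44 and 0.41. Uhrf1, which encodes the partner of Dnmt1 that DPPA3 is known to bind, had a log2 fold change of 0.02 (adjusted p = 0.82, edgeR).

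Nucleic acid deaminases and their cofactors, the group of Apobec1, had 9 of 11 genes tested, with 2 higher, 3 lower and a median of -0.03. Rbm47, which encodes the RNA-binding cofactor of APOBEC1, fell from 682 and 760 counts in WT libraries to 326 and 281 in G3 Terc-/- libraries, a log2 fold change of -1.12. Apob, whose mRNA is the classic substrate, had 27 and 25 counts in WT libraries and 64 and 44 in G3 Terc-/- libraries, a log2 fold change of 1.17 at a very low level. A1cf, another known cofactor, and Apobec4 had 0 counts in each library. Syncrip, also of this list, had a log2 fold change of -0.03 and did not pass the test. Adarb1, an adenosine deaminase gene, fell by 0.41, and Cda, a free-nucleoside deaminase gene, fell by 2.02 from 21 and 15 counts to 5 and 3.

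Around Slc2a3, glucose uptake and glycolysis genes showed 2 higher and 11 lower among 19 tested, with a median of -0.23, and Slc2a3 rose against that direction. The 2 called higher were Slc2a8, another transporter gene (0.36), and Pfkp (0.21). The rise of Slc2a3 by 0.77 stood beside a median of 0.68 for its 20 neighbours on chromosome 6. Hk2, which encodes the hexokinase that traps imported glucose and is also on chromosome 6, fell by 1.48. Txnip, which encodes a restraint on glucose uptake, fell by 1.49. The glycolytic enzyme genes Pgk1 and Aldoa each fell by 0.43.

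**Figure D4:**
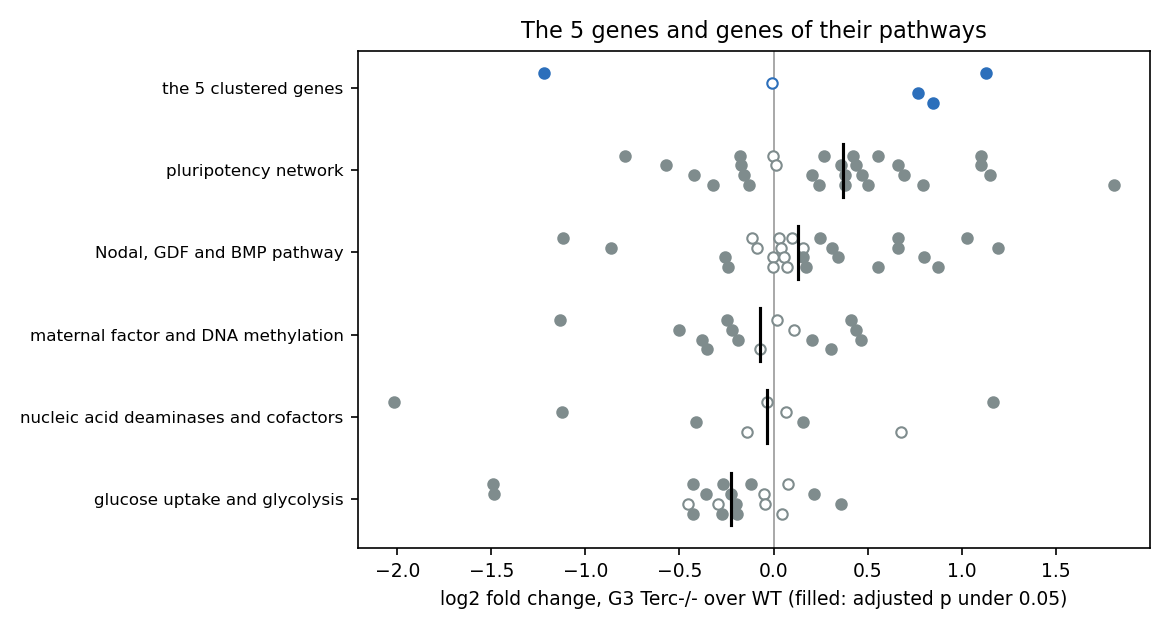
log2 fold change (G3 Terc-/- over WT) of the 5 clustered genes (blue) and of the tested genes of 5 pathway lists (grey); filled points have an edgeR adjusted p under 0.05 and black bars are list medians. The pluripotency median is 0.37 and the glycolysis median is -0.23, and each list holds genes on both sides of 0.

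Dppa3 is also known for its expression in primordial germ cells, and markers of other cell types that such cultures can hold were read beside the members. Germ cell markers (8 tested, 3 higher, 2 lower) summed to 252 and 249 CPM in WT ESCs and to 313 and 307 CPM in G3 Terc-/- ESCs, with Dazl higher by 1.32 and the gene with the most counts, Ifitm3, by 0.20. The 2 called lower were Dnd1 (-0.67) and Prdm1 (-0.62). Trophectoderm markers (6 of 7 tested, 1 higher, 4 lower) summed to 323 and 313 CPM in WT ESCs and 203 and 201 CPM in G3 Terc-/- ESCs, with Krt18 (-1.81) and Krt8 (-1.26) lower and the gene with the most counts over the 4 libraries, Tfap2c, lower by less (-0.18). The 1 called higher was Eomes (1.63). Primitive endoderm markers (8 tested, 1 higher, 3 lower) summed to between 110.4 and 130.2 CPM with overlapping groups, with most counts for Lama1, the 1 called higher (0.30). The 3 called lower were Gata6 (-1.43), Dab2 (-1.05) and Gata4 (-0.75). Among feeder markers Acta2 had the most counts over the 4 libraries (log2 fold change 0.01, not past the test), Tagln was the one called lower (-0.25) and Col5a1, with the smallest p, was higher (0.58). Among ESC markers Tdgf1 had the most counts over the 4 libraries, and Dppa5a had the smallest p and the higher level per kilobase in both genotypes. The part of these cell types in the values of the 5 genes was not tested.

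The genes whose 4 library values most resembled those of each member, by the distance between centred log2 CPM among 12176 genes averaging 50 or more counts per library, were then listed. For Nanog they were Tmc7, Adamts9 and Fbxl17 (distances 0.0260, 0.0331 and 0.0433), and for Gdf3 Atp2b4, Bbs10 and Brdt (0.0491, 0.0511 and 0.0518). Slc2a3 was closest to Wnk1, Car2 and Stk35 (0.0142, 0.0231 and 0.0309), and Dppa3 to Cbx3, Plaur and Snx10 (0.0478, 0.0547 and 0.0640). Apobec1 was closest to Sycp1, Esx1 and Irx2 (0.0515, 0.0662 and 0.0824). Of these 15 genes 4 (Adamts9, Cbx3, Snx10 and Wnk1) are on chromosome 6, which holds 4.64% of all tested genes. With 4 libraries such a likeness describes these libraries only.

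Nanog and Dppa3 have processed pseudogenes whose reads can be hard to separate from theirs. Nanog-ps1 on chromosome X (89883165 to 89883633) was 97.6% identical to the Nanog transcript over 245 aligned bases and Nanog-ps2 on chromosome 12 (61458323 to 61459044) 88.6% identical over 526 bases. Dppa3-ps on chromosome X (37625380 to 37626197) was 98.2% identical over 451 bases, the whole length of the pseudogene transcript. None of the 3 is in the count table, and how shared reads were assigned is not given in the sources used here. The counts of Dppa3 and Nanog are uncertain to that degree, each for part of its length (exon lengths of 892 and 2242 bases).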

How the data were processed

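Total RNA was enriched for poly(A) transcripts and sequenced from 2 WT and 2 G3 Terc-/- ESC libraries. The authors deposited raw whole-number counts per NCBI gene ID; the submitters' processing notes list Trim Galore, STAR, mm10 and featureCounts, while versions, annotation, strand setting and treatment of shared reads are not given in the sources used here. The study's methods name Cufflinks for differential expression, which gives other values than those computed here. Libraries held 18047995 to 22520017 counts, and the floor of 3 counts used for a count of 0 covers counting error only. A deposited table of transposable elements was not used.

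Gene names and positions came from RefSeq (GRCm38.p6), which matched 24061 of 24116 IDs, promoter windows from RefSeq, and exon lengths (union of exons) from GENCODE M21. Counts were filtered with filterByExpr, scaled by TMM and tested with edgeR 4.0.16 (R 4.3.3) by the quasi-likelihood test with Benjamini-Hochberg adjustment over all 14896 tested genes; SE is the log2 fold change divided by the square root of F. CPM and log2 CPM of single genes used library sizes scaled by TMM, and log2 CPM used a prior count of 2. Levels per kilobase and sums over marker lists used the total counts of each library. The fit was tested on simulated data before use. Replicates differed by more than sampling noise (chi-square per gene 2.47 in WT ESCs and 3.74 in G3 Terc-/- ESCs), so each library counts as 1 sample; the study describes them as biological replicates.

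Although the rule for the members uses position only, the members, the gene lists and the markers were chosen with earlier results of these data known, so the choice was not blind. Genes named beside the members were Terc, the nearest tested gene on each side (1 of these is not reported here), the 4 of 20 neighbours with the largest called change, the 4 genes of each pathway list with the smallest p, the marker with the most counts and that with the smallest p in each marker list, and the 3 genes most like each member. Genes named after their values were seen were Pou5f1, Sox2, Nodal, Slc2a1, Slc2a8, Pfkp, Uhrf1, Gdf1, Bmp4, Inhba, Id1, Syncrip, Krt8, Eomes, Gata6, Gata4, Tagln, Dnd1, Prdm1, A1cf, Apobec4, Tspan9, M6pr, Phc1, Lpcat3, Pex5 and Clstn3. Alternatives were DESeq2 1.42.0, its size factors, library totals, TMM without chromosome 6, other filters, a replicate block, other numbers of neighbours and leaving out each library.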

Additional observations from a re-analysis of the deposited data

How the results depend on the processing

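Nanog, Gdf3 and Slc2a3 stayed higher and Dppa3 lower past the test under every alternative run, with log2 fold changes of 1.12 to 1.16, 0.76 to 0.93, 0.75 to 0.80 and -1.30 to -1.13. Of 123 alternative values 106 kept their direction and side of the threshold, or lay near the reported one. The sign of Apobec1 was not stable: it was 0.030 with library totals, 0.0071 with genes of at least 50 mean counts, and between -0.17 and 0.17 when each library was left out, with 0.17 both without WT replicate 2 and without G3 Terc-/- replicate 1. The median of the 20 neighbours was 0.56 with 5 and 0.62 with 20 genes on each side, 0.71 with library totals, 0.55 with no filter, 0.60 with genes of at least 50 mean counts, and 0.66 to 0.73 with each library left out, always above 0. DESeq2 called 2076 genes higher against 3238, and the stricter filter left 285 higher and 271 lower at the study's cutoffs against 704 and 466; fewer genes were tested there.

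The correlation of the replicate differences between genotypes was 0.0617 across genes, although feeder transcripts were higher in replicate 1 of both, and the labels tie the numbers to no shared batch. With a replicate block, 3551 genes were higher and 3583 lower, Apobec1 was at 0.0039 and the neighbours' median at 0.70, and the calls of the 5 genes were as without it. Each genotype had 2 libraries of 1 line.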
